A study of Mus musculus with 16 samples.

Results

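The comparison set the 4 mouse liver libraries titled AKR1B10 knockdown with BBR against the 4 titled negative control without BBR, 8 of the 16 libraries of the series. The series title names berberine, an alkaloid of plants, which is taken to be what BBR stands for. All genes with at least 1 FPKM (fragments per kilobase of transcript, scaled to the library total) in at least 4 of the 16 libraries were compared, which gave 10846 of the 55401 genes in the deposited table, of which 30801 had a count in any library. At the edge of that filter, Rbak was kept with a fourth-highest value of 1.0001 FPKM and means of 0.983 ± 0.063 FPKM in the knockdown with BBR and 0.629 ± 0.156 FPKM in the negative control (SD, 4 libraries each), and Lancl2 was left out with a fourth-highest value of 0.99986 FPKM.

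The study crossed a vector, for AKR1B10 knockdown or a negative control, with berberine treatment or none, in 4 groups of 4 mice. The first group is called the libraries labelled KD+BBR here, because the gene named in the label was not lower in it. The second is called NC, and the other two are KD without berberine and NC with berberine. Column names in the deposited table begin with AAV, and the label gives the tissue as liver and the genotype as AKR1B10 knockdown or control. Strain, age, diet, dose and duration of berberine, the vector's promoter and its target sequence are not given in the sources used here. Since vector and berberine change together between the 2 groups, the part of each in any difference cannot be told apart within this contrast. The labels number the mice without saying how they were housed or dosed, so p-values measure the spread between these samples.

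AKR1B10, a member of the aldo-keto reductase family, reduces reactive aldehydes and retinal, and has been linked to lipid metabolism in human liver. Berberine is known for lowering blood lipids and glucose, with activation of the energy sensor AMPK among its described effects. Hepatic cholesterol synthesis is governed by the transcription factor SREBP-2, which is held back by sterols through INSIG proteins, while SREBP-1 and the nuclear receptor LXR drive fatty acid synthesis and PPARα drives fatty acid oxidation.

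Akr1b10 was not lower in the libraries labelled KD+BBR. It held 0.527, 0.389, 0.458 and 0.427 FPKM in libraries 1 to 4 labelled KD+BBR, against 0.177, 0.486, 0.42 and 0.505 FPKM in NC libraries 1 to 4. The means were 0.451 ± 0.0583 FPKM and 0.397 ± 0.151 FPKM (SD, n = 4 each) and the ranges overlapped, with NC library 1 the lowest of the 8. An exact permutation of the mean FPKM, two-sided, gave p = 0.686 (n = 4 each, smallest p possible 0.0286), and 0.686 after Benjamini-Hochberg adjustment over the 4 family members. In mm10 the gene, ENSMUSG00000061758, lies on the plus strand of chromosome 6 (34384218 to 34396950) and rested on 47 to 113 counts per library, a low level for a liver gene. Akr1b8, the mouse gene often treated as a counterpart of human AKR1B10 and the only family member past the expression filter, held 1.06, 0.55, 0.681 and 1.12 FPKM in the libraries labelled KD+BBR, against 0.632, 1.72, 0.479 and 1.17 FPKM in NC (exact permutation p = 0.686). Without NC library 2 the difference in mean Akr1b8 turned to 0.094 FPKM above NC, and without NC library 1 that of Akr1b10 turned to 0.020 FPKM below NC. Akr1b3, the aldose reductase of the polyol pathway, held 0.258, 0.455, 0.422 and 0.237 FPKM under the KD+BBR label, against 0.543, 0.476, 0.409 and 0.252 FPKM in NC (exact permutation p = 0.343). Akr1b7 had a count of 0 in libraries 1, 2 and 4 labelled KD+BBR and 0.270 FPKM in library 3, against 0.0748, 0.122, 0.177 and 0.0488 FPKM in NC (exact permutation p = 0.657). Akr1b3 and Akr1b7 each overlap a gene on the other strand, and whether counting used strand is not given in the sources used here.

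Total counts lay between 46273129 and 54394727 in the libraries labelled KD+BBR and between 50028526 and 66235443 in NC. Mitochondrially encoded genes took 11.9% to 15.9% of them in the libraries labelled KD+BBR and 11% to 13.3% in NC. Hepatocyte markers dominated both groups, with Alb, serum albumin, at 18723, 15605, 20973 and 18504 FPKM in the libraries labelled KD+BBR and 16567, 18506, 15497 and 17719 FPKM in NC, and the 12 hepatocyte markers together at 41868 to 50536 FPKM in the libraries labelled KD+BBR and 45101 to 48568 FPKM in NC. Markers of immune cells stood at far lower levels and are given with the immune genes. KD library 4, which enters through the shared estimate of spread, had 35.4% of its counts in mitochondrially encoded genes.

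No gene differed between the libraries labelled KD+BBR and NC at an adjusted p under 0.05. By edgeR's quasi-likelihood test and Benjamini-Hochberg adjustment over all tested genes, the call count was 0 of 10846 genes (0%), and the lowest adjusted p was 0.856. At an unadjusted p under 0.05 there were 612 genes (5.64%), of which 324 were higher (2.99%) and 288 lower (2.66%), where 542.3 would be reached if p-values were spread evenly. The FPKM values of the 2 groups did not overlap for 672 genes (6.2%), with 403 higher (3.72%) and 269 lower (2.48%), and 270 genes had both features. Fitted log2 fold changes were above 0 for 49.6% of the tested genes and below 0 for 50.4%, with a median of 0.00 and the middle 50% of genes between −0.19 and 0.20. Limma on log2(FPKM + 1) gave 597 genes at an unadjusted p under 0.05, of which 443 were higher (74.2%, against 52.94% under edgeR) and 154 lower. Upper-quartile scaling gave 391 of 623 higher (62.76%). The count of 612 moved to 335 without NC library 1 and to 1047 without KD library 4. The differences described from here on are values and counts read against these shares, and every edgeR adjusted p of this contrast was at least 0.856.

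DESeq2 on the same counts called 9 genes at an adjusted p under 0.05 (0.0832% of the 10817 for which it gave one). Slc16a6, a monocarboxylate transporter that exports ketone bodies in zebrafish liver, had the lowest unadjusted p of the edgeR test (9.51e-05) and held 1.89, 2.27, 1.72 and 1.06 FPKM in the libraries labelled KD+BBR, against 0.563, 0.735, 0.399 and 0.389 FPKM in NC. All 4 libraries labelled KD+BBR lay above all NC libraries, and DESeq2 gave a log2 fold change of 1.69 (adjusted p 0.000744). Slc16a6 reached the 1 FPKM of the filter in all 4 libraries labelled KD+BBR and in no NC library. Its fold change and lack of overlap therefore support nothing by themselves. Ube2r2, a ubiquitin-conjugating enzyme that works with cullin ligases, held 17.9, 16.8, 16.4 and 16 FPKM under the KD+BBR label, against 24.7, 25.2, 18.8 and 22.9 FPKM in NC (DESeq2 adjusted p 0.00717). Gpat4 and Ube2r2 were lower without overlap, and Gpat4 is described with the lipid genes. Tnfaip2, Dna2 and Myadml2os were higher and Gm14036 lower, with DESeq2 adjusted p between 0.0179 and 0.0421. Tnfaip2 and Myadml2os also reached 1 FPKM in no NC library, so their direction supports nothing by itself. Krt5 and Commd1b were at a count of 0 in all 4 libraries labelled KD+BBR, but Krt5 was also at 0 in NC libraries 3 and 4 and Commd1b in NC libraries 1 to 3, so those calls rest on 2 libraries and on 1.

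**Figure D1:**
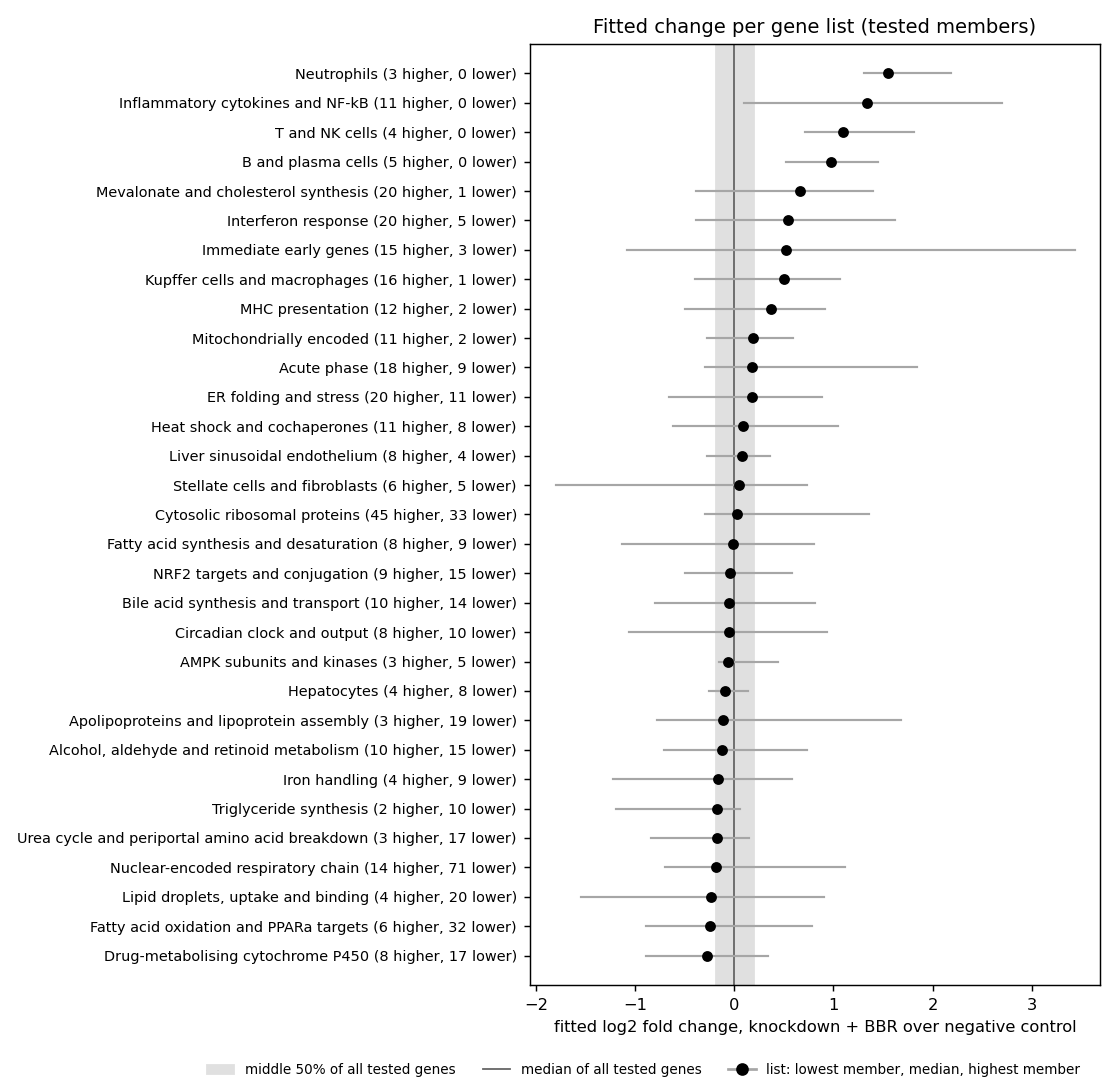
Fitted log2 fold change (KD+BBR minus NC, horizontal axis) of the tested members of each gene list (rows): the dot is the median, the thin line runs from the lowest to the highest member, and the grey band spans the middle 50% of all 10846 tested genes, −0.19 to 0.20. The sterol synthesis, interferon, inflammatory, immediate early and immune cell marker lists have medians above the band, and the lipid droplet, fatty acid oxidation and P450 lists have medians below it. The inflammatory, neutrophil, B and plasma cell, and T and NK cell lists show only the 11 of 21, 3 of 10, 5 of 9 and 4 of 12 members that passed the filter on low values.

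Sequences upstream of the transcription start are shown for genes of 2 lists, sterol synthesis and the interferon response, because both have textbook promoter elements. RefSeq windows of the 250 bases before the start (build GRCm38.p6) were available for 16 of the sterol genes and 20 of the interferon genes tested. On both strands, the sterol regulatory element TCACNCCA occurred in 2 of 19 sterol windows (10.53%) and in 1207 of all 32851 windows (3.674%), and the CCAAT box in 15 of the 19 (78.95%) and in 33.85% of all. The interferon-stimulated response element GAAANNGAAA occurred in 11 of 23 interferon windows (47.83%) and in 978 of all (2.977%). Capitals mark matches to these letters on either strand, so that some read as the reverse complement. Hmgcs1 (chr13:119690101-119690350, plus strand) and Msmo1 (chr8:64733579-64733828, minus strand) are the sterol genes whose windows hold TCACNCCA, starting 137 and 177 bases before the start, each beside 3 CCAAT boxes.
Hmgcs1: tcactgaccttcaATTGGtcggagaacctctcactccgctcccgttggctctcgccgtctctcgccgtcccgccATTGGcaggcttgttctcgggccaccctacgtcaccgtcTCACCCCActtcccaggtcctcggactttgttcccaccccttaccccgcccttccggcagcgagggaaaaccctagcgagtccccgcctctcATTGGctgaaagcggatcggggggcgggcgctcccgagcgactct
Msmo1: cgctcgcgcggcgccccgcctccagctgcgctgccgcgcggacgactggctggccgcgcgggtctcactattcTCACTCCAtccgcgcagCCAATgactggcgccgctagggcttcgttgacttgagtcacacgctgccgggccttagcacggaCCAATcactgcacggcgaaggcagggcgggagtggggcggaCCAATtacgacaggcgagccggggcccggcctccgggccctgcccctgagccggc
Irgm1 (chr11:48871421-48871670, minus strand) and Gbp3 (chr3:142559794-142560043, plus strand) are shown as interferon genes without overlap between the groups whose windows hold matches, 2 overlapping ones each close to the start. They were chosen after their values were seen. The windows of Ifi47 and Tap1, the other 2 tested interferon genes without overlap, hold 0 matches. Another window of Gbp3 (chr3:142560106-142560355, plus strand) also holds 0 matches and is not shown.
Irgm1: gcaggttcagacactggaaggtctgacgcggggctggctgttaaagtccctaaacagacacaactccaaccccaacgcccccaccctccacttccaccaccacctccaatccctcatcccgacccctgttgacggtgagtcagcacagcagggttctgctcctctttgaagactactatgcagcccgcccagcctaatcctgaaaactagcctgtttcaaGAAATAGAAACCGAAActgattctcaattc
Gbp3: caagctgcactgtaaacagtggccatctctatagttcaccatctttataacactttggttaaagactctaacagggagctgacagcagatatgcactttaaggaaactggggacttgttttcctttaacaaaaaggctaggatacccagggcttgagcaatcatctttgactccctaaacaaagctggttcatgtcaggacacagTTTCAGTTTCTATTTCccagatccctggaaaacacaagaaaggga
A match is a description of the letters only, and the binding of any factor was not measured.

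Genes of the mevalonate and cholesterol synthesis pathway had higher levels in 3 of the 4 libraries labelled KD+BBR. Of the 21 pathway genes, all tested, 20 had a fitted fold change above 0 and 1 below, with a median log2 fold change of 0.67 against 0.00 over all genes. At an unadjusted p under 0.05, 6 were higher and 0 lower, against 2.99% and 2.66% of all tested genes. Libraries 1, 2 and 3 labelled KD+BBR lay above every NC library for 19, 20 and 12 of the 21 genes, while library 4 lay above for 1 and below for 10. Across all tested genes the 4 libraries lay above every NC library for 31.4%, 30.3%, 20.4% and 21.6%. None of the 21 genes had groups that did not overlap (0 of 21, against 6.2% of all genes). The median moved to 0.26 without library 2 labelled KD+BBR, 0.90 without library 4 and 1.01 without NC library 3.

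Hmgcs1, the cytosolic synthase that makes HMG-CoA, held 152, 209.9, 119.7 and 38 FPKM in the libraries labelled KD+BBR, against 38.2, 38.1, 79.5 and 38 FPKM in NC (log2 fold change 1.34, SE 0.70, unadjusted p = 0.0729). Libraries 1 to 3 labelled KD+BBR were above all NC libraries and library 4 was level with the 3 lower ones. Mvd, which decarboxylates mevalonate diphosphate, held 29.1, 35, 17.5 and 4.94 FPKM under the KD+BBR label, against 4.58, 7.11, 13.8 and 5.4 FPKM in NC (log2 fold change 1.40, SE 0.52, unadjusted p = 0.016). Mvd had the same layout, with library 4 labelled KD+BBR inside the NC range. Lss, lanosterol synthase, held 3.41, 6.96, 3.71 and 1.37 FPKM under the KD+BBR label, against 1.2, 2.16, 2.27 and 1.21 FPKM in NC (log2 fold change 1.11, SE 0.43, unadjusted p = 0.021). Nsdhl, a demethylating dehydrogenase of the later steps, held 36.2, 50.0, 35.6 and 11.5 FPKM under the KD+BBR label, against 11.5, 15.4, 23 and 12.5 FPKM in NC (log2 fold change 1.02, SE 0.38, unadjusted p = 0.0157). Nsdhl had the smallest unadjusted p of the list, and its library 4 labelled KD+BBR was level with the lowest NC library. Cyp51 and Sqle, lanosterol demethylase and squalene epoxidase, were also under 0.05, with log2 fold changes of 0.84 and 1.10. Mvd and Lss overlap genes on the other strand.

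**Figure D2:**
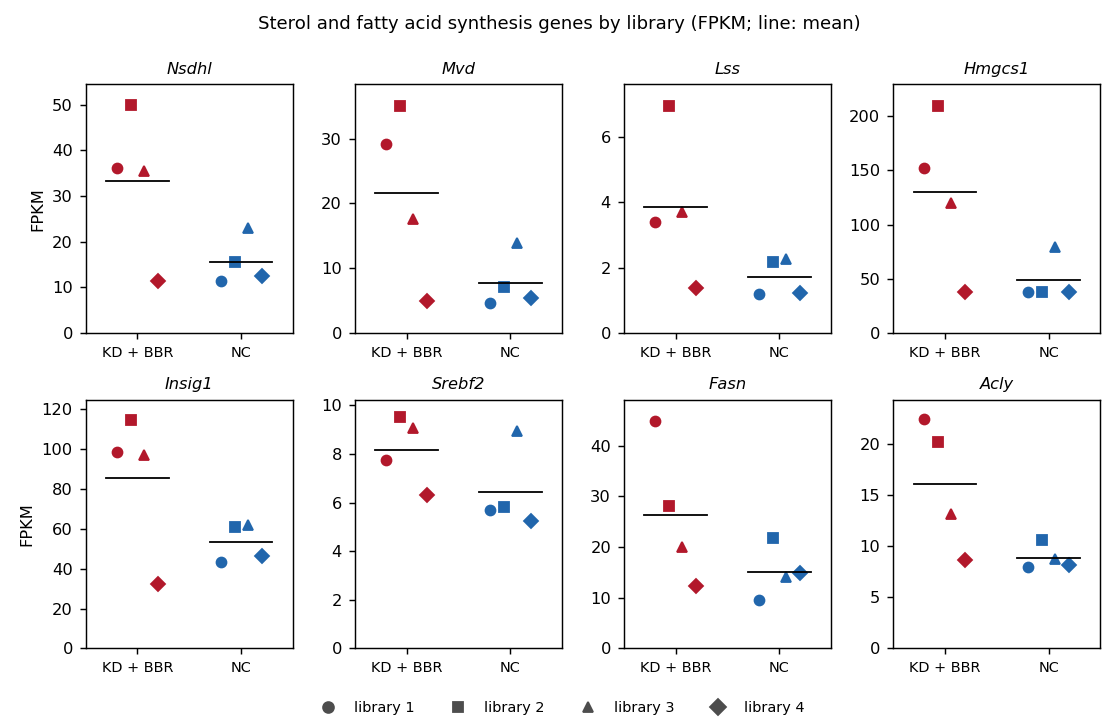
FPKM (vertical axis) of sterol and fatty acid synthesis genes by group, KD+BBR left and NC right, with a symbol for each library and the line as the group mean. For Hmgcs1, Mvd, Nsdhl and Lss, KD+BBR libraries 1 to 3 lie above the NC libraries, and library 4 (38.0, 4.94, 11.5 and 1.37 FPKM) lies among or level with them.

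Insig1 and Srebf2, genes of the SREBP pathway, overlapped between the groups. Insig1, which retains the SREBP complex in the endoplasmic reticulum, held 98.7, 115, 97.1 and 32.3 FPKM under the KD+BBR label, against 43.4, 60.9, 61.7 and 46.6 FPKM in NC (log2 fold change 0.63, SE 0.37, unadjusted p = 0.108). Srebf2, which encodes SREBP-2, held 7.73, 9.52, 9.05 and 6.31 FPKM under the KD+BBR label, against 5.71, 5.82, 8.95 and 5.24 FPKM in NC (log2 fold change 0.28, SE 0.20, unadjusted p = 0.186). For Insig1, library 4 labelled KD+BBR was the lowest of the 8, and for Srebf2 NC library 3 lay among the KD+BBR values.

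Genes of fatty acid synthesis went in both directions. Of the 17 tested of 19, 8 were above 0 and 9 below, and the median was −0.01. Fasn, fatty acid synthase, held 45, 28.1, 20.1 and 12.3 FPKM under the KD+BBR label, against 9.54, 21.9, 14.1 and 14.9 FPKM in NC (log2 fold change 0.75, SE 0.33, unadjusted p = 0.0371). Acly, which supplies cytosolic acetyl-CoA, held 22.4, 20.2, 13.1 and 8.62 FPKM under the KD+BBR label, against 7.96, 10.6, 8.68 and 8.1 FPKM in NC (log2 fold change 0.81, SE 0.36, unadjusted p = 0.0416). For both genes the value was highest in library 1 and lowest in library 4 among those labelled KD+BBR, and library 4 was within the NC range. Without library 1 the log2 fold change of Fasn was 0.38. Scd1, the stearoyl-CoA desaturase that makes oleate, went the other way, at 304, 217, 278 and 201 FPKM under the KD+BBR label against 413, 1019, 265 and 469 FPKM in NC (log2 fold change −1.14, SE 0.43, unadjusted p = 0.0191). NC library 2 was the highest and NC library 3 lay within the KD+BBR range, and without NC library 2 the log2 fold change was −0.68.

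Genes that build and mobilise triglyceride were mostly lower in the libraries labelled KD+BBR. Of 12 triglyceride synthesis genes, all tested, 10 were below 0 and 2 above (median −0.17). At an unadjusted p under 0.05, 2 were lower, and those same 2 were without overlap, against 2.66% and 2.48% of all tested genes. Gpat4, which adds the first acyl chain to glycerol-3-phosphate in the endoplasmic reticulum, held 16.3, 15.4, 15.6 and 18.4 FPKM under the KD+BBR label, against 23.6, 23.8, 19.5 and 24 FPKM in NC (log2 fold change −0.51, SE 0.12, unadjusted p = 0.000521). All 4 libraries labelled KD+BBR were below all 4 NC libraries, and DESeq2 called the gene (adjusted p 0.0136). Mogat1, a monoacylglycerol acyltransferase that is raised in fatty livers of mice, held 4.95, 7.32, 4.75 and 8.26 FPKM under the KD+BBR label, against 12.8, 15.3, 11.7 and 10.5 FPKM in NC (log2 fold change −1.04, SE 0.40, unadjusted p = 0.0212), also without overlap. Dgat2, which adds the last acyl chain, held 72.5, 80.6, 94.6 and 121 FPKM under the KD+BBR label, against 99.8, 119, 109.7 and 110.0 FPKM in NC (log2 fold change −0.29, SE 0.21, unadjusted p = 0.194), and library 4 labelled KD+BBR was the highest of the 8.

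Of 24 lipid droplet, uptake and binding genes tested of 25, 20 were below 0 and 4 above (median −0.24). At an unadjusted p under 0.05, 3 were lower, against 2.66% of all tested genes. Pnpla2, the adipose triglyceride lipase that starts droplet lipolysis, held 25.2, 21.1, 29.2 and 31.5 FPKM under the KD+BBR label, against 40.7, 46.6, 39.3 and 41.5 FPKM in NC (log2 fold change −0.69, SE 0.24, unadjusted p = 0.0115), and its groups did not overlap. Slc27a4, a fatty acid transport protein, held 5.12, 6.17, 5.61 and 5.23 FPKM under the KD+BBR label, against 9.42, 10.4, 6.85 and 5.56 FPKM in NC (log2 fold change −0.59, SE 0.19, unadjusted p = 0.00763), with NC library 4 inside the KD+BBR range. Among 22 apolipoprotein and lipoprotein assembly genes, 19 were below 0 and 3 above (median −0.11). Apoa5, which raises lipoprotein lipase activity, held 185, 212, 292 and 119 FPKM under the KD+BBR label, against 365, 371, 372 and 229.6 FPKM in NC (log2 fold change −0.78, SE 0.29, unadjusted p = 0.0173). Apoe, the ligand for remnant uptake, held 6265, 6867, 6609 and 5383 FPKM under the KD+BBR label, against 9343, 9612, 8479 and 6365 FPKM in NC (log2 fold change −0.48, SE 0.19, unadjusted p = 0.0248). In both genes NC library 4 was the lowest NC library and lay within the KD+BBR range.

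Angptl8, a feeding-induced secreted inhibitor of lipoprotein lipase, ran against its list. It held 141, 59.1, 65.5 and 52.1 FPKM in the libraries labelled KD+BBR, against 13.3, 23.5, 33.4 and 24.5 FPKM in NC (log2 fold change 1.68, SE 0.52, unadjusted p = 0.00532). All 4 libraries labelled KD+BBR were above all NC libraries, and library 1 stood far above the other 3. The gene overlaps Dock6 on the other strand, and reads of the 2 genes cannot be told apart if strand was not used in counting.

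Genes of fatty acid oxidation and PPARα targets had a median log2 fold change of −0.25, below the lower quartile of all tested genes (−0.19). Their mean log2 CPM, relative to its mean over the 16 libraries, was −0.14, 0.14, 0.07 and −0.04 in libraries 1 to 4 labelled KD+BBR. In NC libraries 1 to 4 it was 0.50, 0.46, 0.03 and −0.04. NC libraries 1 and 2 thus stood highest, and NC libraries 3 and 4 lay within the KD+BBR range. Of 38 tested of 39, 32 were below 0 and 6 above (median −0.25). At an unadjusted p under 0.05, 4 were lower, against 2.66% of all tested genes, and 2 were lower without overlap, against 2.48%. Libraries 1 to 4 labelled KD+BBR lay below every NC library for 16, 4, 8 and 12 of the 38 (42.1%, 10.5%, 21.1% and 31.6%), so that libraries 2 and 3 were under their shares of all tested genes, 16.7% and 22.1%. Acadvl, the very-long-chain acyl-CoA dehydrogenase, held 140.0, 158, 139 and 136 FPKM under the KD+BBR label, against 192, 205, 165 and 163 FPKM in NC (log2 fold change −0.39, SE 0.16, unadjusted p = 0.0289), without overlap. Hadha, the α subunit of the trifunctional protein, held 23.7, 29.2, 27.3 and 19.4 FPKM under the KD+BBR label, against 36.1, 38.9, 26.4 and 26 FPKM in NC (log2 fold change −0.40, SE 0.17, unadjusted p = 0.0307), with overlap. Acot1, a fasting-induced acyl-CoA thioesterase and PPARα target, held 5.84, 9.97, 6.72 and 5.1 FPKM under the KD+BBR label, against 15.5, 19.2, 9.15 and 5.81 FPKM in NC (log2 fold change −0.89, SE 0.39, unadjusted p = 0.038), and NC libraries 3 and 4 lay within the KD+BBR range. Acaa1b, a peroxisomal thiolase, held 1722, 2187, 1317 and 1347 FPKM under the KD+BBR label, against 2281, 2694, 1311 and 2119 FPKM in NC, with overlap.

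Nuclear-encoded respiratory chain genes were also lower by small amounts and mitochondrially encoded ones were not. Of 85 nuclear-encoded genes tested of 93, 71 were below 0 and 14 above (median −0.18), with 10 lower and 0 higher without overlap, against 2.48% and 3.72% of all tested genes. Only 1 was lower at an unadjusted p under 0.05, against 2.66% of all. Libraries 1 to 4 labelled KD+BBR lay below every NC library for 26, 49, 55 and 33 of the 85 (30.6%, 57.6%, 64.7% and 38.8%), against 18.8%, 16.7%, 22.1% and 24.1% of all tested genes. Sdhb, the iron-sulfur subunit of complex II, held 102, 99.7, 74.2 and 99.6 FPKM under the KD+BBR label, against 103, 128, 113 and 109 FPKM in NC (log2 fold change −0.32, SE 0.12, unadjusted p = 0.0222). Ndufv1, a complex I subunit, held 22.7, 27.9, 26.5 and 23.8 FPKM under the KD+BBR label, against 32.4, 36.2, 32.9 and 33.6 FPKM in NC (log2 fold change −0.46, SE 0.23, unadjusted p = 0.0573). Cox6a1, a complex IV subunit, held 616, 458, 476 and 572 FPKM under the KD+BBR label, against 705, 704, 704 and 679 FPKM in NC (log2 fold change −0.44, SE 0.23, unadjusted p = 0.0773). None of these 3 genes overlapped between the groups. Of the 13 mitochondrially encoded genes, 11 were above 0 and 2 below (median 0.19). The complex I subunit gene mt-Nd4l held 5041, 4656, 5167 and 4181 FPKM under the KD+BBR label, against 2758, 2983, 3434 and 3016 FPKM in NC (log2 fold change 0.59, SE 0.32, unadjusted p = 0.0835), without overlap, and mt-Co1 held 21319, 19984, 25766 and 23354 FPKM under the KD+BBR label, against 16470.5, 15565, 21496 and 19241 FPKM in NC. The share of counts from mitochondrially encoded genes varied between libraries as given above, and its part in these differences was not tested.

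**Figure D3:**
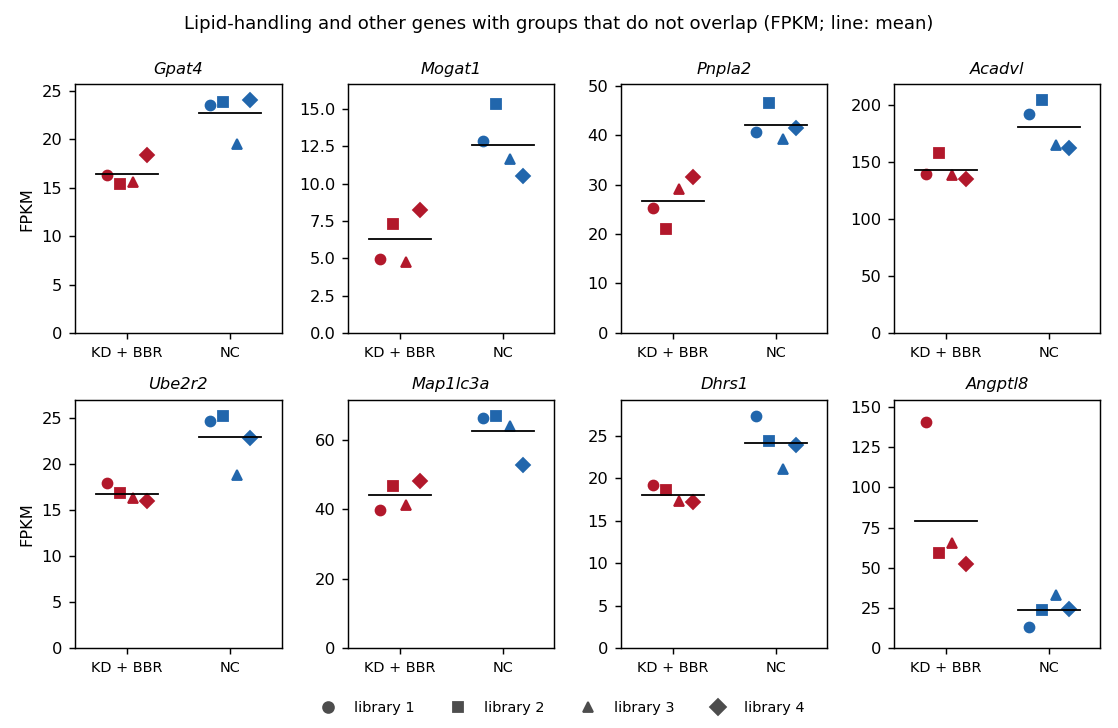
FPKM (vertical axis) of lipid-handling and other genes without overlap by group, KD+BBR left and NC right, with a symbol for each library and the line as the group mean. For Gpat4, Mogat1, Pnpla2, Acadvl, Ube2r2, Map1lc3a and Dhrs1 the KD+BBR libraries all lie below the NC libraries, and for Angptl8 all lie above.

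Interferon response genes were higher in all 4 libraries labelled KD+BBR for a few members and in libraries 3 and 4 for most. Of 25 tested of 30, 20 were above 0 and 5 below (median 0.54). At an unadjusted p under 0.05, 9 were higher and 0 lower, against 2.99% and 2.66% of all genes. Without overlap, 4 were higher, against 3.72% of all genes. Libraries 1 to 4 labelled KD+BBR lay above every NC library for 7, 10, 17 and 19 of the 25 (28%, 40%, 68% and 76%). The shares of all tested genes were 31.4%, 30.3%, 20.4% and 21.6%, so library 1 was under its share. The median was 0.38 without library 3 or without library 4 labelled KD+BBR. Ifi47 and Irgm1, interferon-γ-inducible GTPases that defend against intracellular microbes, were among the 12 higher genes with the smallest p that the naming rule takes from the whole table. Ifi47 held 8.49, 6.46, 16.8 and 12 FPKM under the KD+BBR label, against 5.31, 4.7, 6.02 and 5.78 FPKM in NC (log2 fold change 0.97, SE 0.26, unadjusted p = 0.00237). Irgm1 held 7.92, 7.52, 11.3 and 10.1 FPKM under the KD+BBR label, against 5.65, 6.01, 5.45 and 5.74 FPKM in NC (log2 fold change 0.65, SE 0.20, unadjusted p = 0.00537). Gbp3, a guanylate-binding protein, held 1.87, 1.62, 4.06 and 3.25 FPKM under the KD+BBR label, against 0.773, 1.34, 1.29 and 1.58 FPKM in NC (log2 fold change 1.09, SE 0.37, unadjusted p = 0.0102). All 3 genes were higher without overlap, with library 3 the highest, and Ifi47 overlaps a gene on the other strand. Stat2, which carries the type I interferon signal, held 11.8, 15, 9.92 and 6.57 FPKM under the KD+BBR label, against 3.54, 5.26, 4.96 and 8.58 FPKM in NC (log2 fold change 0.90, SE 0.27, unadjusted p = 0.00474). Its order differed, with library 2 the highest and library 4 below NC library 4. Bst2, the most abundant member and a tether of budding virions, held 139, 136, 156 and 145 FPKM under the KD+BBR label, against 172, 179, 135 and 152 FPKM in NC (log2 fold change −0.19, SE 0.24, unadjusted p = 0.457).

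Inflammatory cytokine and NF-κB genes stood at low levels, and the expression filter limits what their direction can show. Only 11 of 21 passed the filter on low values, and those 11 were all above 0 (median 1.34), with 5 higher at an unadjusted p under 0.05. A gene that passed the filter only through the libraries in which it is high had to differ, so the count supports nothing by itself. On the log2(FPKM + 1) scale the median was 0.64. Ccl2, the monocyte-attracting chemokine, held 0.607, 0.619, 1.94 and 1.15 FPKM under the KD+BBR label, against 0.24, 0.341, 0.0502 and 0.152 FPKM in NC (log2 fold change 2.40, SE 0.66, unadjusted p = 0.0024), without overlap and with a gene on the other strand. It passed the filter only through libraries labelled KD, 1.94 and 1.15 FPKM with berberine and 1.03 and 1.15 FPKM without. Its fold change and lack of overlap therefore support nothing by themselves. Cxcl9, an interferon-γ-induced T cell attractant, held 3.02, 1.3, 23.6 and 14 FPKM under the KD+BBR label, against 1.37, 2.48, 1.86 and 1.66 FPKM in NC (log2 fold change 2.5, SE 0.77, unadjusted p = 0.00543). Ccl5, a chemokine made by T and NK cells among others, held 1.97, 1.03, 10.6 and 4.67 FPKM under the KD+BBR label, against 0.977, 1.23, 0.935 and 2.01 FPKM in NC (log2 fold change 1.81, SE 0.59, unadjusted p = 0.00767). For both chemokines, libraries 3 and 4 labelled KD+BBR were above all NC libraries, and library 2 was below NC library 1 for Cxcl9 and within the NC range for Ccl5. Without library 3 the log2 fold change of Cxcl9 was 1.71 and that of Ccl5 was 0.96. Icam1, an endothelial adhesion molecule, held 2.5, 1.52, 4.04 and 2.61 FPKM under the KD+BBR label, against 1.01, 1.58, 0.445 and 1.13 FPKM in NC (log2 fold change 1.34, SE 0.48, unadjusted p = 0.0136). Cxcl1, a neutrophil attractant, held 2.77, 5.25, 9.85 and 4.61 FPKM under the KD+BBR label, against 3.51, 2.28, 3.1 and 5.42 FPKM in NC (log2 fold change 0.61, SE 0.66, unadjusted p = 0.366).

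Immediate early genes, which respond within minutes to growth signals and stress, were set by library 3 labelled KD+BBR. Of 18 tested of 25, 15 were above 0 and 3 below (median 0.52), and without that library the median was −0.08. Egr1, a zinc finger transcription factor, held 1.19, 4.19, 45.4 and 2.68 FPKM under the KD+BBR label, against 2.11, 1.22, 0.892 and 0.655 FPKM in NC (log2 fold change 3.43, SE 1.02, unadjusted p = 0.00432). Jun, a subunit of AP-1, held 10.8, 5.84, 100.4 and 4.03 FPKM under the KD+BBR label, against 5.63, 8.01, 4.85 and 4.69 FPKM in NC (log2 fold change 2.37, SE 0.77, unadjusted p = 0.00787). Without library 3 the log2 fold change was 1.07 for Egr1 and 0.18 for Jun. The orphan nuclear receptor gene Nr4a1 held 1.52, 0.831, 9.28 and 0.396 FPKM under the KD+BBR label, against 0.573, 0.336, 0.306 and 0.457 FPKM in NC, and its log2 fold change was 2.81 with library 3 and 1.04 without it. Nr4a1 passed the filter of 1 FPKM without any NC library, so neither fold change supports anything by itself. Btg2, an antiproliferative gene, held 2.26, 3.59, 44.5 and 2.04 FPKM under the KD+BBR label, against 2.42, 2.33, 3.42 and 2.24 FPKM in NC, and its log2 fold change was 2.31 with library 3 and −0.06 without it.

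Markers of Kupffer cells and macrophages lay above NC mostly in library 3 of the libraries labelled KD+BBR. Of 17 Kupffer cell and macrophage markers tested of 18, 16 were above 0 and 1 below (median 0.50, and 0.15 without library 3 labelled KD+BBR). Without overlap, 0 were higher and 1 lower, against 3.72% and 2.48% of all tested genes. Libraries 1 to 4 lay above every NC library for 2, 1, 15 and 2 of them (11.8%, 5.88%, 88.2% and 11.8%), against 31.4%, 30.3%, 20.4% and 21.6% of all tested genes. Summed over the 18 markers, the level was 96.1 to 260 FPKM in the libraries labelled KD+BBR and 81.4 to 193 FPKM in NC. Mpeg1, a pore-forming protein of macrophages, held 5.98, 7.08, 12.4 and 7.61 FPKM under the KD+BBR label, against 3.28, 6.03, 4.78 and 4.78 FPKM in NC (log2 fold change 0.78, SE 0.31, unadjusted p = 0.0244). Clec4f, a receptor found on mouse Kupffer cells, held 18.6, 10.9, 28.5 and 16.5 FPKM under the KD+BBR label, against 8.07, 20.1, 7.41 and 16.5 FPKM in NC (log2 fold change 0.50, SE 0.40, unadjusted p = 0.233), and both genes overlapped between the groups. The 12 T and NK cell markers summed to 3.79 to 24.0 FPKM under the KD+BBR label, against 3.85 to 6.23 FPKM in NC. The 9 B and plasma cell markers summed to 34.6 to 120 FPKM under the KD+BBR label, against 14.2 to 50.5 FPKM in NC, mostly from Igkc, the κ light chain constant region, at 44.5, 28.8, 97.4 and 43.5 FPKM in the libraries labelled KD+BBR and 10.3, 16.6, 37.2 and 11.7 FPKM in NC. The 10 neutrophil markers summed to 2.16 to 9.03 FPKM under the KD+BBR label, against 1.39 to 2.63 FPKM in NC. These sums overlapped between the groups in all 3 lists. Only 4 of the T and NK cell markers, 5 of the B and plasma cell markers and 3 of the neutrophil markers passed the filter on low values, some of them through the libraries in which they are high, so the direction of those that passed supports nothing. Among neutrophil markers, Ly6g was at a count of 0 in all 8 libraries and Csf3r, the G-CSF receptor, held 1.2, 0.672, 1.5 and 0.817 FPKM under the KD+BBR label, against 0.196, 0.595, 0.276 and 0.596 FPKM in NC, without overlap. MHC presentation genes were above 0 for 12 of 14 tested (median 0.37, and 0.03 without library 3). In these bulk samples, a change in the number of cells of a type and a change in their RNA per cell cannot be told apart, and the part of immune cell content in the interferon and inflammatory values was not tested.

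**Figure D4:**
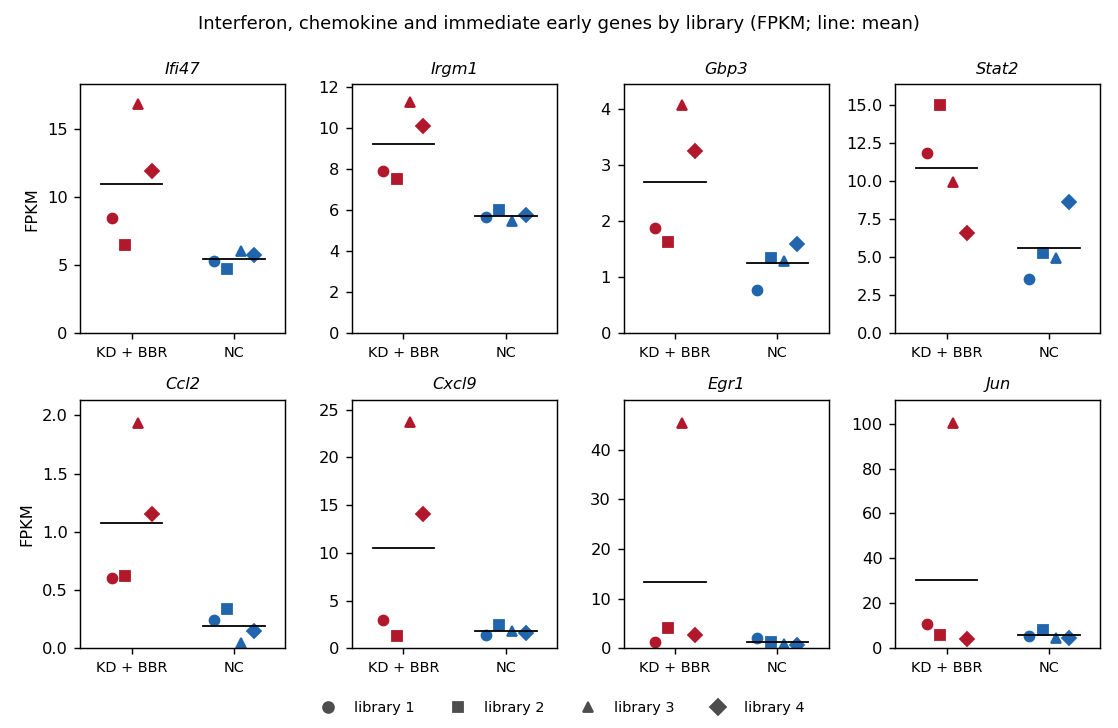
FPKM (vertical axis) of interferon, chemokine and immediate early genes by group, KD+BBR left and NC right, with a symbol for each library and the line as the group mean. Ifi47, Irgm1, Gbp3 and Ccl2 have every KD+BBR library above the NC libraries, while Egr1 and Jun are set by library 3 at 45.4 and 100.4 FPKM. Ccl2 passed the expression filter only through libraries labelled KD.

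Acute phase genes, which hepatocytes induce under IL-6, were above 0 for 18 of 27 and below for 9 (median 0.18, and −0.01 without library 3 labelled KD+BBR), with 0 at an unadjusted p under 0.05. Itih4, an inter-α-trypsin inhibitor chain, held 134, 159.8, 197 and 152 FPKM under the KD+BBR label, against 109, 115, 87.4 and 114 FPKM in NC (log2 fold change 0.56, SE 0.47, unadjusted p = 0.251), without overlap. Orm2, an orosomucoid, held 8.26, 7.25, 43.5 and 21.1 FPKM under the KD+BBR label, against 2.98, 4.33, 4.32 and 12.1 FPKM in NC (log2 fold change 1.75, SE 1.5, unadjusted p = 0.264), and without library 3 its log2 fold change was 1.02. Hpx, the haem scavenger hemopexin, held 1147, 1200.4, 1994 and 1080.4 FPKM under the KD+BBR label, against 1151, 1149.7, 1108 and 1111 FPKM in NC. Library 3 labelled KD+BBR alone stood above the rest for Hpx, and without it the log2 fold change turned to −0.05.

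Other genes took their place by the naming rule, which lists the 12 genes in each direction with the smallest unadjusted p among those without overlap, with an official symbol and at least 5 FPKM in the higher group; 107 higher and 176 lower genes met its conditions. Sat1, which acetylates spermidine and spermine for breakdown, held 20.1, 18.8, 23 and 19.1 FPKM in the libraries labelled KD+BBR, against 15.7, 9.98, 9.02 and 12.6 FPKM in NC (log2 fold change 0.73, SE 0.22, unadjusted p = 0.00432). Prkab1, the β1 regulatory subunit of AMPK, held 7.3, 5.43, 6.07 and 6.15 FPKM under the KD+BBR label, against 3.91, 3.97, 4.89 and 5.0 FPKM in NC (log2 fold change 0.44, SE 0.15, unadjusted p = 0.010). Of 8 AMPK subunit and kinase genes tested of 10, 3 were above 0 and 5 below (median −0.06), and Prkab1 was the 1 without overlap. Pde9a, a phosphodiesterase specific for cGMP, held 6.65, 6.49, 5.24 and 3.91 FPKM under the KD+BBR label, against 3.36, 3.61, 3.28 and 3.2 FPKM in NC (log2 fold change 0.67, SE 0.21, unadjusted p = 0.00633). Dynll1, a dynein light chain, held 5.97, 5.27, 4.14 and 5.83 FPKM under the KD+BBR label, against 3.61, 3.05, 1.91 and 2.01 FPKM in NC (log2 fold change 0.95, SE 0.33, unadjusted p = 0.0117). In all 4 genes the lowest library labelled KD+BBR was above the highest NC library, and Pde9a and Prkab1 overlap genes on the other strand.

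On the lower side, Map1lc3a, a form of the autophagosome protein LC3, held 39.8, 46.6, 41.3 and 48.1 FPKM under the KD+BBR label, against 66.3, 66.7, 64 and 52.7 FPKM in NC (log2 fold change −0.55, SE 0.13, unadjusted p = 0.000949). Blmh, the cysteine protease bleomycin hydrolase, held 3.48, 4.22, 3.29 and 2.95 FPKM under the KD+BBR label, against 5.71, 5.26, 4.28 and 5.05 FPKM in NC (log2 fold change −0.59, SE 0.14, unadjusted p = 0.000814). Spr, sepiapterin reductase of tetrahydrobiopterin synthesis, held 13.6, 15.2, 16.2 and 14.7 FPKM under the KD+BBR label, against 32.7, 31.3, 23.5 and 19.1 FPKM in NC (log2 fold change −0.88, SE 0.28, unadjusted p = 0.00624). These 3 genes were lower in every library labelled KD+BBR than in any NC library. Nat8, an N-acetyltransferase of cysteine conjugates, held 5.42, 6.85, 6.42 and 3.96 FPKM under the KD+BBR label, against 15, 7.84, 10.9 and 10 FPKM in NC (log2 fold change −1.01, SE 0.29, unadjusted p = 0.00374). Dhrs1, a short-chain dehydrogenase, held 19.2, 18.6, 17.4 and 17.2 FPKM under the KD+BBR label, against 27.3, 24.4, 21.1 and 23.9 FPKM in NC (log2 fold change −0.47, SE 0.13, unadjusted p = 0.00289). Ywhae, the 14-3-3ε adaptor, held 65.1, 55.8, 50.4 and 53.1 FPKM under the KD+BBR label, against 67, 71.6, 66.9 and 71.8 FPKM in NC (log2 fold change −0.35, SE 0.11, unadjusted p = 0.00666). These 3 genes too were without overlap.

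The 2 groups with only 1 of the factors show where these values lie, although they share the NC libraries with the comparison above. For sterol synthesis, the median log2 fold change over NC was 0.67 in the libraries labelled KD+BBR, −0.41 in KD and 0.67 in NC with berberine. Mvd held 29.1, 35, 17.5 and 4.94 FPKM in the libraries labelled KD+BBR, 5.29, 7.29, 5.83 and 5.85 FPKM in KD, 21.1, 6.08, 8.75 and 20.1 FPKM in NC with berberine and 4.58, 7.11, 13.8 and 5.4 FPKM in NC. Berberine-treated libraries of either vector included both high and low values of Mvd, and all 4 KD libraries were within the NC range. The sterol list score, the mean log2 CPM of the list's genes minus its mean over the 16 libraries, was 0.69, 1.08, 0.42 and −0.58 in libraries 1 to 4 labelled KD+BBR, −0.55, −0.01, −0.48 and −1.12 in KD, 0.68, −0.36, −0.10 and 0.87 in NC with berberine and −0.31, −0.11, 0.41 and −0.53 in NC. The interferon median over NC was 0.54 in the libraries labelled KD+BBR, 0.40 in KD and 0.31 in NC with berberine. The inflammatory median was 1.34 in the libraries labelled KD+BBR, 1.23 in KD and 0.53 in NC with berberine. It covers only the 11 of 21 genes that passed the filter. Ccl2 passed only through libraries labelled KD, so these medians support nothing by themselves. Fatty acid oxidation stood at −0.25 in the libraries labelled KD+BBR, −0.29 in KD and −0.25 in NC with berberine, and acute phase genes at 0.18 in the libraries labelled KD+BBR, 1.19 in KD and 0.86 in NC with berberine. The acute phase list scores of libraries 1 to 4 were 0.47, −0.13, 2.33 and −0.91 in KD and −0.34, 2.26, −0.08 and −0.21 in NC with berberine. In NC they were −0.73, −0.71, −0.25 and −0.55. KD library 3 and NC with berberine library 2 thus stood far above the rest of their groups. Angptl8 averaged 79.3 ± 41.2 FPKM in the libraries labelled KD+BBR, 79.9 ± 63.6 FPKM in KD, 19.8 ± 7.17 FPKM in NC with berberine and 23.7 ± 8.2 FPKM in NC (SD, 4 libraries each). Both groups labelled KD were above both NC groups in every library for that gene. Gpat4 averaged 16.4 ± 1.37 FPKM in the libraries labelled KD+BBR, 19.2 ± 0.991 FPKM in KD, 17.4 ± 1.15 FPKM in NC with berberine and 22.7 ± 2.16 FPKM in NC, the highest of the 4 means.

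The interaction tests whether the KD+BBR values depart from the sum of both single-factor differences on the log2 scale. By edgeR's quasi-likelihood test and Benjamini-Hochberg adjustment, 0 of 10846 genes were called (0%; lowest adjusted p 0.756), with 711 at an unadjusted p under 0.05 (6.56%), and DESeq2 called 10 (0.0924%). Fasn had an interaction of 1.65 on the log2 scale (SE 0.46, unadjusted p = 0.00294), with means of 26.4 ± 14 FPKM in the libraries labelled KD+BBR, 10.4 ± 1.08 FPKM in KD, 10.8 ± 3.72 FPKM in NC with berberine and 15.1 ± 5.09 FPKM in NC. Orm2 had one of −9.19 (SE 2.38, unadjusted p = 0.00156), which rests on KD library 3 at 1199 FPKM and NC with berberine library 2 at 750.1 FPKM. Derl2, a component of the machinery that removes misfolded proteins from the endoplasmic reticulum, had one of −1.41 (SE 0.33, unadjusted p = 0.000742), with means of 5.26 ± 0.615 FPKM in the libraries labelled KD+BBR, 10.9 ± 2.97 FPKM in KD, 9.22 ± 1.58 FPKM in NC with berberine and 8.01 ± 3.11 FPKM in NC. For Angptl8 the interaction was −0.02 (SE 0.71).

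**Figure D5:**
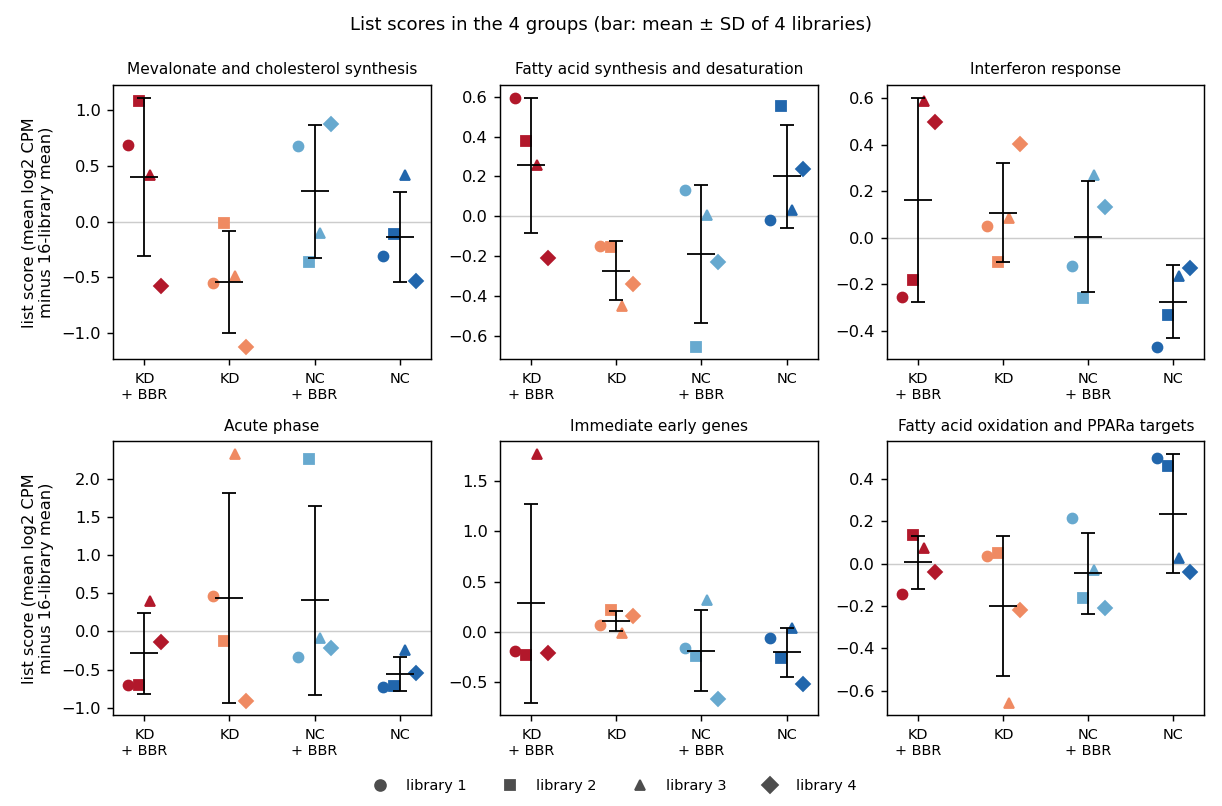
List scores (vertical axis, the members' mean log2 CPM relative to all 16 libraries) in all 4 groups, ordered KD+BBR, KD, NC with berberine and NC, with a symbol for each library and the bar as the mean ± SD. The sterol score of library 4 labelled KD+BBR (−0.58) lies near the lowest NC library (−0.53), and the acute phase score is highest in 1 KD library (2.33) and 1 berberine-treated NC library (2.26).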

How the data were processed

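Liver poly(A) RNA of 16 mice was sequenced as 150-base pairs after dUTP marking of the second strand, per the labels' protocols. The submitters' processing notes list StringTie 1.3.4d, HISAT2 2.0.4, cutadapt 1.9, DESeq2 and edgeR and the mm10 build, without roles. The authors deposited a count and an FPKM value for each gene in each library, per the file headers, and 0.0001 FPKM stands for a count of 0. The counting tool and its use of strand are not given in the sources used here. Between 760 and 1283 genes per library had a count of 4, against 144 to 208 with a count of 5, so counts do not always equal fragments and low counts are less precise than they look.

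From the counts, edgeR 4.0.16 (TMM scaling, group means fitted to all 16 libraries, quasi-likelihood F test, two-sided, Benjamini-Hochberg over 10846 genes, threshold 0.05) gave fold changes, standard errors and p-values, tested first on simulated counts. Limma 3.58.1, DESeq2 1.42.0, other scalings, filters and fits, and each library left out were alternatives, and DESeq2 gave an adjusted p for 10817 genes. FPKM values, means ± SD and group overlap come from the deposited FPKM. The AKR1B family was compared by exact permutation of mean FPKM (70 splits). List scores use log2 CPM with a prior count of 2. R 4.3.3, Python 3.11.15, pandas 2.3.3 and numpy 2.4.6 were used. The comparison, the gene lists, their members and the tests were chosen with earlier results of these data known, so no pattern here is independent support. Genes were named by rule: the AKR1B family, the 12 per direction of lowest p among non-overlapping genes that have an official symbol and 5 FPKM or more in the higher group, and per list up to 4 with the smallest p and the 2 most abundant; not all are printed, and some results are not reported here. The 9 genes called by DESeq2, and Cyp51 and Sqle of the sterol list, Rbak and Lancl2 at the filter's edge and Msmo1 for its sequence were named after their values were seen. Replicate numbers are the labels' own, and they were not taken to pair the mice.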

Additional observations from a re-analysis of the deposited data

Results flagged for a closer look

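In 21 of 222 groups of 4 libraries examined (the FPKM of the named genes and the scores of the lists described), 1 library lay far from the other 3 by Dixon's test at the 95% level; chance alone flags about 1 in 20.

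Library 3 labelled KD+BBR was the distant one for the immediate early genes Egr1 (45.4 FPKM, against 1.19 to 4.19 FPKM in the other 3 of its group), Nr4a1 (9.28 FPKM), Jun (100.4 FPKM) and Btg2 (44.5 FPKM), and for the immediate early list score (1.77). The same library was highest for Hpx (1994 FPKM), Akr1b7 (0.270 FPKM, the other 3 at a count of 0) and the score of NRF2 targets and conjugation genes (0.24), and lowest for Sdhb (74.2 FPKM). Library 4 labelled KD+BBR was lowest for Got1, the cytosolic aspartate aminotransferase (30.1 FPKM), and highest for Hnf4a, a hepatocyte nuclear receptor (112 FPKM). Library 1 labelled KD+BBR was highest for Angptl8 (141 FPKM), and library 2 was lowest for Slc40a1, the iron exporter ferroportin (2.66 FPKM).

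Among the NC libraries, library 3 was distant for Gpat4 (19.5 FPKM, the lowest), Hmgcs1 (79.5 FPKM, the highest), Srebf2 (8.95 FPKM, the highest) and Btg2 (3.42 FPKM, the highest). Library 4 was lowest for Apoa5 (229.6 FPKM) and Cox6a1 (679 FPKM) and highest for Orm2 (12.1 FPKM) and the neutrophil alarmin gene S100a9 (1.17 FPKM).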

How the results depend on the processing

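Over 31 alternatives, 3 fold changes of the 76 named genes reversed (Btg2, Hpx and Alb, each in 1 setting), and 11 values of the 47 list medians moved by more than the spread within groups, while 1349 did not. Adjusted p under 0.05 was reached by 9 genes under DESeq2, and for the interaction by 10 genes under DESeq2 and by 0 to 1 when each library was left out, 1 without NC with berberine library 2 and 1 without KD library 1. Under edgeR and limma 0 genes were called for KD+BBR against NC in all other settings. Genes at an unadjusted p under 0.05 numbered 1705 with library weights, 1394 without an expression filter, 241 at FPKM 5, 1264 when only the 2 groups were fitted, and 335 (without NC library 1) to 1047 (without KD library 4) when 1 library was left out. Groups did not overlap for 314 genes at FPKM 5 and for 784 genes on CPM with TMM scaling, against 672 on the deposited FPKM. The inflammatory median was 0.64 on log2(FPKM + 1) and 0.66 at FPKM 5, that of AMPK genes 0.21 at FPKM 5, and that of cholangiocyte markers 1.10 at FPKM 5. The gluconeogenesis median was −0.20 with library weights and −0.24 to 0.049 when 1 library was left out. With 1 library left out, medians ranged from 0.026 to 0.56 for MHC presentation, −0.085 to 0.84 for immediate early genes, −0.0038 to 0.18 for cell cycle and −0.13 to 0.024 for liver transcription factor genes. Log2 fold changes ranged from −0.061 to 2.66 for Btg2, −0.046 to 0.31 for Hpx and −0.010 to 0.16 for Alb, all lowest without library 3 labelled KD+BBR. The difference of mean FPKM ranged from −0.32 to 0.094 for Akr1b8 and from −0.020 to 0.090 for Akr1b10. Causes were not tested, beyond the fewer or more genes tested under another filter.

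With the replicate number as a block, 0 genes were called and 631 had an unadjusted p under 0.05. Same-numbered libraries correlated at 0.012 to 0.196 in their deviations from the group means, and 2 of 4 correlated best with their own number. With only 4 numbers, these values cannot decide whether same-numbered mice were handled together. Low counts limit Akr1b7, Ccl2 and the neutrophil markers most.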

Other observations

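Gene lists of glucose metabolism had medians near 0. Gluconeogenesis and insulin response genes were above 0 for 8 of 15 tested in the libraries labelled KD+BBR (median log2 fold change 0.03), glycolysis and fructose entry genes for 5 of 18 (median −0.13) and glycogen genes for 5 of 13 (median −0.05). Bile acid synthesis and transport genes were above 0 for 10 of 24 (median −0.05). Cyp7a1, the rate-limiting enzyme of bile acid synthesis, held 4.28, 12.4, 11.7 and 3.31 FPKM in the libraries labelled KD+BBR, against 13.5, 8.89, 22 and 8.04 FPKM in NC (log2 fold change −0.80, SE 0.46, unadjusted p = 0.102). Abcb11, the bile salt export pump, held 99, 79.1, 66.2 and 55.2 FPKM under the KD+BBR label, against 65.6, 61, 20.5 and 17.4 FPKM in NC (log2 fold change 0.82, SE 0.48, unadjusted p = 0.111). Both genes overlapped between the groups.

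Drug-metabolising P450 genes were below 0 for 17 of 25 (median −0.27). Cyp2d9, a male-biased enzyme of mice, held 225, 295, 294 and 281 FPKM under the KD+BBR label, against 483, 341, 379.9 and 315 FPKM in NC (log2 fold change −0.52, SE 0.22, unadjusted p = 0.0296), lower without overlap, and Cyp1a2, which clears caffeine, held 255, 231, 224 and 240.0 FPKM under the KD+BBR label, against 177, 162, 171 and 213 FPKM in NC (log2 fold change 0.34, SE 0.19, unadjusted p = 0.0897), higher without overlap. Urea cycle and amino acid breakdown genes were below 0 for 17 of 20 (median −0.18), with Got1 at 44.9, 43, 43.7 and 30.1 FPKM under the KD+BBR label, against 74.1, 66.4, 98.5 and 37.4 FPKM in NC (log2 fold change −0.84, SE 0.35, unadjusted p = 0.0314). Among 25 alcohol, aldehyde and retinoid genes, 15 were below 0 (median −0.12) and 4 were lower without overlap, against 2.48% of all tested genes. Retsat, which saturates retinol, held 156, 211, 177 and 167 FPKM under the KD+BBR label, against 342, 367, 230.2 and 187 FPKM in NC (log2 fold change −0.71, SE 0.29, unadjusted p = 0.0275). NRF2 targets and conjugation genes were below 0 for 15 of 24 (median −0.04), and Taldo1, transaldolase of the pentose phosphate pathway, held 49.3, 49.5, 50.2 and 47.6 FPKM under the KD+BBR label, against 64.3, 66.4, 53.5 and 63.2 FPKM in NC (log2 fold change −0.38, SE 0.12, unadjusted p = 0.00771), without overlap.

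Endoplasmic reticulum folding genes were above 0 for 20 of 31 (median 0.18), with 7 higher without overlap against 3.72% of all tested genes. At an unadjusted p under 0.05, 0 were higher and 1 lower. Libraries 1 to 4 labelled KD+BBR lay above every NC library for 32.3%, 71%, 58.1% and 32.3% of them. The shares of all tested genes were 31.4%, 30.3%, 20.4% and 21.6%. Pdia4, a disulfide isomerase, held 62.5, 92.1, 85.4 and 71.9 FPKM under the KD+BBR label, against 60.2, 59.4, 53.7 and 48.6 FPKM in NC (log2 fold change 0.44, SE 0.27, unadjusted p = 0.117). Of 19 heat shock genes 11 were above 0 (median 0.09). Hspa8, the constitutive HSP70, held 362, 419, 322 and 437 FPKM under the KD+BBR label, against 261, 312, 211 and 258 FPKM in NC (log2 fold change 0.52, SE 0.21, unadjusted p = 0.0275), without overlap. Hsp90aa1, the inducible HSP90, held 42.6, 58.4, 15.7 and 42.6 FPKM under the KD+BBR label, against 15.2, 22.9, 10.2 and 26.9 FPKM in NC (log2 fold change 1.04, SE 0.50, unadjusted p = 0.0552), with overlap. Hamp, the iron hormone hepcidin, held 1808, 1336, 1279 and 531 FPKM under the KD+BBR label, against 2521, 1035, 2311 and 2744 FPKM in NC (log2 fold change −0.87, SE 0.36, unadjusted p = 0.0288), and 9 of 13 iron handling genes were below 0 (median −0.16). Acta2, the smooth muscle actin of activated stellate cells and vessel walls, held 0.529, 0.663, 0.453 and 0.82 FPKM under the KD+BBR label, against 4.18, 1.28, 1.78 and 1.03 FPKM in NC (log2 fold change −1.80, SE 0.60, unadjusted p = 0.00893), and without NC library 1 its log2 fold change was −1.18. Acta2 reached the 1 FPKM of the filter in all 4 NC libraries and in none labelled KD+BBR, so its direction supports nothing by itself. Of 11 stellate cell and fibroblast markers tested of 13, 6 were above 0 and 5 below (median 0.05). At an unadjusted p under 0.05, 1 was higher and 1 lower, against 2.99% and 2.66% of all tested genes. Stellate cell markers summed to 61.3 to 98.9 FPKM under the KD+BBR label, against 59.2 to 97.8 FPKM in NC, and endothelial markers to 41.0 to 59.1 FPKM under the KD+BBR label, against 32.0 to 74.8 FPKM in NC. Cytosolic ribosomal protein genes were above 0 for 45 of 78 (median 0.03) and circadian clock genes for 8 of 18 (median −0.06). Rxra, the shared partner of PPARα and LXR, held 41.5, 37.8, 42.4 and 46.7 FPKM under the KD+BBR label, against 48.6, 56.9, 51 and 53 FPKM in NC (log2 fold change −0.36, SE 0.18, unadjusted p = 0.0608), without overlap.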
